A study of Mus musculus with 4 samples.

Results

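The genes examined here encode 10 subunits of the BAF chromatin remodelling complex, namely *Smarca4*, *Smarca2*, *Smarcb1*, *Smarcc1*, *Smarcc2*, *Smarcd1*, *Smarcd3*, *Arid1a*, *Arid1b* and *Pbrm1*. The rule that chose them gives their names and uses no measured value. They are 10 of the 21951 protein-coding genes of the GENCODE M21 annotation. For each gene, the places that differed in open chromatin between hearts with and without SMYD1 were counted and located. A place was counted when it overlapped the gene or lay within 10 kb of one of its transcription start sites (TSSs).

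Open chromatin was measured by ATAC-seq, in which the Tn5 transposase cuts DNA that is free of nucleosomes. The tissue was the whole heart of mouse embryos at E9.5 (embryonic day 9.5), either wild type (WT) or homozygous for a null allele of *Smyd1* (*Smyd1-KO*), whose product is a muscle histone methyltransferase. *Smyd1+/-* and WT mice came from a commercial colony, embryos of both sexes were used, no treatment was given, and the null allele was present in every cell rather than in cardiomyocytes alone. Each genotype had 2 libraries, each made from 40000 viable cells of 4 pooled hearts.

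The BAF complex, the mammalian SWI/SNF complex, uses the energy of ATP to slide or evict nucleosomes and so opens DNA to other proteins. It is assembled from a catalytic ATPase, core subunits that most assemblies share, and subunits that come in alternative versions encoded by related genes. In the embryonic heart the complex works with cardiac transcription factors, and loss of several of its subunits disturbs heart formation in mice.

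The deposited data were 2 lists of peaks, each interval being 149 bp wide, so that values per peak were also comparable per length. The *Smyd1-KO*-enriched list held 25745 peaks with at least 2-fold more tags, that is reads as counted by the peak caller, in *Smyd1-KO* hearts. The WT-enriched list held 106 peaks that differed in the opposite direction. The value of a peak, called the score here, was a deposited tag value for the genotype in which the peak was higher, pooled over its libraries. The scores in the *Smyd1-KO* list were multiples of 0.5, and how they were scaled or averaged is not given in the sources used here. A peak therefore had 1 score with no replicate error, no value per library was at hand, and no test between the genotypes was made. The *Smyd1* gene itself had 2 *Smyd1-KO*-enriched peaks by the same rule, with 0 of them closer to a TSS than 1 kb, and 0 WT-enriched peaks, so the lists gave no check of the genotype labels. The lists hold only peaks that differed and thus cannot show whether the tissue carried its defining markers. By the same rule, 7 of 7 cardiomyocyte markers, 4 of 6 endocardial or endothelial, 2 of 5 erythroid and 2 of 4 epicardial markers had a *Smyd1-KO*-enriched peak, against 62.6% of all protein-coding genes. The part of cell composition in the results below was not tested, and more cells with an open site cannot be told apart from a site that was more open in each cell.

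All 10 genes carried *Smyd1-KO*-enriched peaks, 37 in all, and 0 carried a WT-enriched peak. By the same rule 62.6% of all protein-coding genes had a *Smyd1-KO*-enriched peak, and 0.155% of them, 34 genes, had a WT-enriched peak. With so few genes called in the whole annotation, a count of 0 among 10 genes says little about these genes. The nearest WT-enriched peak to any of the genes lay 2632 kb from *Smarcb1*. At each of the 10 genes a peak also lay within 1 kb of a TSS, which held for 48.1% of protein-coding genes. A peak covered a TSS at 6 of the 10 genes, against 27.8% of protein-coding genes. At least 2 peaks by the rule were found at 8 of the 10 genes, against 29.3%, and at least 2 peaks within 1 kb of a TSS at 7 of the 10, against 8.37%. GENCODE lists several TSSs for most of these genes, up to 42 for *Smarca2*, and a gene with more TSSs has more places to be counted.

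The counts were therefore repeated with RefSeq starts, of which each gene has 1 apart from *Arid1a*, which has 2. All 10 genes again had a peak within 1 kb, as did 47.4% of the 16539 protein-coding genes with a RefSeq start. Only 4 of the 10, *Smarca4*, *Smarcd1*, *Arid1a* and *Arid1b*, then had at least 2 such peaks, against 6.04%. For *Arid1a* these were counted around 2 starts. The edge of the nearest peak was at most 143 bp from the RefSeq start in every gene and at most 73 bp from a GENCODE TSS. The middle of that peak was upstream of the RefSeq start in 8 genes and downstream of it in *Smarcb1* and *Pbrm1*.

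**Figure D1:**
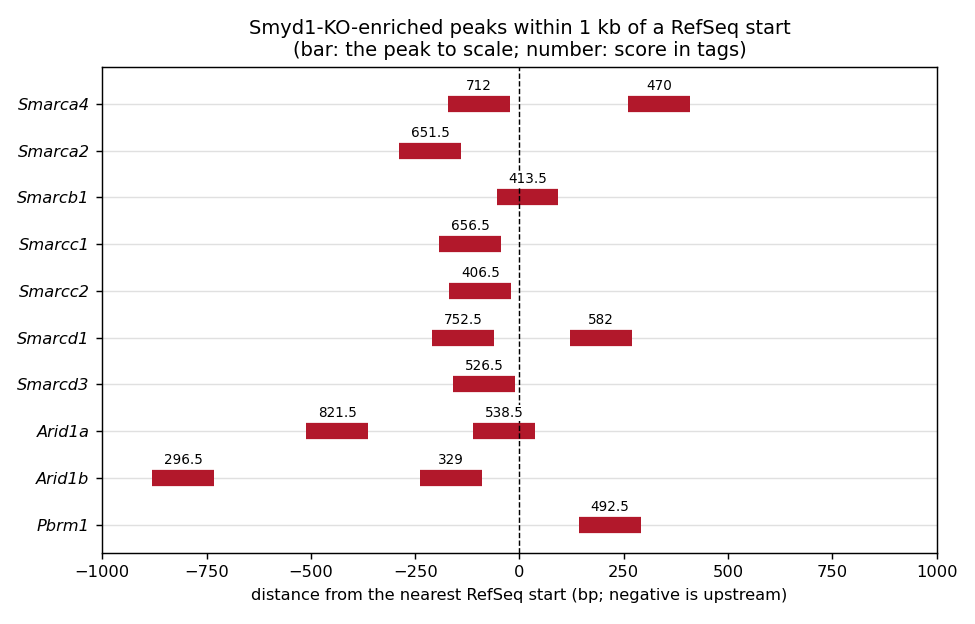
*Smyd1-KO*-enriched peaks within 1 kb of a RefSeq start of the 10 BAF subunit genes. The horizontal axis is the distance from the nearest RefSeq start in bp (negative is upstream), each bar is 1 peak drawn to scale, and the number above it is its score in tags. Every gene has a bar that begins within 143 bp of the start, and only the peaks at *Smarcb1* and *Arid1a* cover it.

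The sequences of the peaks nearest to the starts of both ATPase genes, both scaffold genes and *Pbrm1* are printed first, since they carry the main observation, a gained peak at the start of each gene. They were read from the GRCm38 (mm10) genome and are written 5′ to 3′ on the strand of the gene. Capitals mark letters that match 1 of 11 short motifs, given with their counts further on. The peak of *Smarca4* is chr9:21615998-21616146 (+ strand), that of *Smarca2* is chr19:26604872-26605020 (+), that of *Smarcc1* is chr9:110131832-110131980 (+), that of *Smarcc2* is chr10:128459068-128459216 (+) and that of *Pbrm1* is chr14:31019281-31019429 (+).
Smarca4 start peak: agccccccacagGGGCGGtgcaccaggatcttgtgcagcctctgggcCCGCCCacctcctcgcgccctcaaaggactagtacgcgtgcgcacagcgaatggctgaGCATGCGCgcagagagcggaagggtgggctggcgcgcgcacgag
Smarca2 start peak: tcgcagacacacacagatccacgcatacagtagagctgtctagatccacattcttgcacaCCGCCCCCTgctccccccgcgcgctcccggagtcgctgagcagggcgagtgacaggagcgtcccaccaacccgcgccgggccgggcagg
Smarcc1 start peak: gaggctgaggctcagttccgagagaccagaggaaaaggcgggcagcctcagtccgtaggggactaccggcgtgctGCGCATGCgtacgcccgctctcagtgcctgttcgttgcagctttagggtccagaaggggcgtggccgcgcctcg
Smarcc2 start peak: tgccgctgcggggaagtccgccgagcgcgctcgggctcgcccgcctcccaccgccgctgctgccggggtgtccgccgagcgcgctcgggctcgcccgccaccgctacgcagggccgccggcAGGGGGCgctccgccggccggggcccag
Pbrm1 start peak: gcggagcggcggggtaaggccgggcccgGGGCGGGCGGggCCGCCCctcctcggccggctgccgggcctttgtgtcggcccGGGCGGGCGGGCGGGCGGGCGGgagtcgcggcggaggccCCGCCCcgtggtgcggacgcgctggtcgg

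A further set shows selected peaks of *Smarcd3*, *Arid1a* and *Arid1b*. It holds the *Smarcd3* peak at its RefSeq start, chr5:24602013-24602161 (− strand), and the one 2854 bp upstream of that start, chr5:24604856-24605004 (−). The strongest *Arid1a* peak, chr4:133754348-133754496 (−), and the strongest *Arid1b* peak, chr17:5189847-5189995 (+), follow.
Smarcd3 peak at the RefSeq start: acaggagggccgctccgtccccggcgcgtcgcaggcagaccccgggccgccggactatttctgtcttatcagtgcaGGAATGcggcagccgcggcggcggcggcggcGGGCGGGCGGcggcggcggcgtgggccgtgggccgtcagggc
Smarcd3 peak upstream of it: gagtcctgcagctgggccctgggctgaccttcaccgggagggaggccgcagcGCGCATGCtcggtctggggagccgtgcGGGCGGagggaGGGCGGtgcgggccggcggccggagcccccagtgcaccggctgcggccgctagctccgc
Arid1a strongest peak: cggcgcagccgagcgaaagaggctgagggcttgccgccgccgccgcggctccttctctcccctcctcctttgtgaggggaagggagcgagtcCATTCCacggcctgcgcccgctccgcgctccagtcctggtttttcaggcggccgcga
Arid1b strongest peak: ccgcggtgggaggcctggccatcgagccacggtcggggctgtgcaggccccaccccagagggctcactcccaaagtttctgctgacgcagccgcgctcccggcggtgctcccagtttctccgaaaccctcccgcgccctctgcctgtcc

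*Smarca4* encodes BRG1 and *Smarca2* encodes BRM, the alternative ATPases of the complex. *Smarca4* (ENSMUSG00000032187.16, chr9:21616169-21704230, + strand, 88.1 kb) had 2 peaks. The peak upstream of the gene ended 23 bp before the TSS and scored 712 tags, and the peak in its first intron, chr9:21616429-21616577, scored 470 tags. No *Smyd1-KO*-enriched peak was found elsewhere in the gene. *Smarca2* (ENSMUSG00000024921.17, chr19:26605050-26778322, +, 173 kb) had 5 peaks. Its start peak lay 30 bp before the outermost TSS and scored 651.5 tags, 0.915 times the strongest peak of *Smarca4*. The other 4 lay inside the gene and were weaker, at 133.5, 61, 54.5 and 44.5 tags. The 133.5-tag peak, chr19:26747858-26748006 in intron 27, lay 183 bp from the TSS of an alternative protein-coding transcript, and the 44.5-tag peak lay 598 bp from the TSS of a retained-intron transcript.

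*Smarcb1* encodes a core subunit that is lost in rhabdoid tumours. *Smarcb1* (ENSMUSG00000000902.13, chr10:75896769-75921617, − strand, 24.8 kb) had a single peak, chr10:75921521-75921669, which covered the TSS and the start of the 5′ UTR and scored 413.5 tags. It was the shortest gene after *Smarcd1*, and nothing further was gained along it in these lists.

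*Smarcc1* and *Smarcc2* encode BAF155 and BAF170, the scaffold subunits around which the complex is built. *Smarcc1* (ENSMUSG00000032481.17, chr9:110117708-110240178, +, 122 kb) had 3 peaks. The strongest, at 656.5 tags, covered a GENCODE TSS inside the annotated span and lay 44 bp from the RefSeq start. The second, chr9:110117367-110117515 at 569.5 tags, lay 193 bp from the outermost *Smarcc1* TSS but covered a TSS of *Dhx30*, an RNA helicase gene. The last, chr9:110245767-110245915 at 267 tags, lay beyond the 3′ end of *Smarcc1* and 150 bp from a TSS of *Cspg5*, so that 1 of its 3 peaks belonged by position to *Smarcc1* alone. *Smarcc2* (ENSMUSG00000025369.15, chr10:128459248-128490482, +, 31.2 kb) had a single peak, 32 bp before the GENCODE TSS and 20 bp from the RefSeq start. It scored 406.5 tags, 0.619 times the strongest peak within 1 kb of a *Smarcc1* TSS.

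*Smarcd1* and *Smarcd3* encode BAF60A and BAF60C, alternative subunits that contact transcription factors, of which BAF60C is enriched in the early heart. *Smarcd1* (ENSMUSG00000023018.5, chr15:99702129-99713991, +, 11.9 kb) had 2 peaks. The peak chr15:99702078-99702226 covered the TSS and scored 752.5 tags, and the peak chr15:99702409-99702557 in the first coding exon scored 582 tags. Both lay within 122 bp of the RefSeq start, on either side of it. *Smarcd3* (ENSMUSG00000028949.13, chr5:24590818-24624411, −, 33.6 kb) had 4 peaks spread over 4 places. The peak at the RefSeq start, 11 bp from it, scored 526.5 tags, and the intronic peak 2844 bp from the nearest TSS scored 536.5 tags. The peak chr5:24598694-24598842, over a coding exon, scored 456.5 tags. The outermost annotated TSS was covered by chr5:24624356-24624504 at only 151 tags, 22354 bp from the RefSeq start. The strongest peak within 1 kb of a *Smarcd3* TSS was 0.700 times that of *Smarcd1*.

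*Arid1a* and *Arid1b* encode the alternative large ARID subunits that define the canonical BAF assembly. *Arid1a* (ENSMUSG00000007880.16, chr4:133679008-133756769, −, 77.8 kb) had 4 peaks. The strongest, at 821.5 tags, lay 363 bp from the inner of its RefSeq starts, and chr4:133756732-133756880, at 538.5 tags, covered the outer RefSeq start. Farther inside, a peak of 381.5 tags in intron 1 lay 5964 bp from a TSS, and a peak of 89 tags in intron 12 lay nearer to *Pigv* (15777 bp) than to an *Arid1a* TSS (32204 bp). The 2 peaks near the starts thus scored higher than both peaks deeper in the gene.

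*Arid1b* (ENSMUSG00000069729.14, chr17:4994332-5347656, +, 353 kb) was the longest gene and had 13 peaks, 35.1% of all peaks at the 10 genes. Both peaks near its start covered a GENCODE TSS, chr17:4994194-4994342 at 296.5 tags and chr17:4994836-4994984 at 329 tags. The stronger of them was the lowest among the strongest start peaks of the 10 genes, 329 tags being 0.40 times the strongest start peak of *Arid1a*. The other 11 peaks were intronic and lay from 10632 to 284032 bp from any *Arid1b* TSS. Their scores were 241.5, 220, 49, 167, 103.5, 201.5, 114.5, 85, 952, 86.5 and 155 tags in the order of the gene. A single peak stood out, the 952-tag peak in intron 4, while the second highest was 241.5 tags and the median was 155 tags. The 952-tag peak was the highest of the 37 and lay 149269 bp from the nearest *Arid1b* TSS and 77737 bp from a TSS of any gene, that of the predicted gene *Gm15599*. It was singled out after its value was seen. In the whole list 1790 peaks lay more than 50 kb from any TSS, their median score was 67.5 tags, and 3 of them, this peak included, reached 952 tags. Its GC content was 71.1%, whereas the other 10 intronic *Arid1b* peaks beyond 10 kb had 47.7 to 59.1%.

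*Pbrm1* encodes BAF180, the bromodomain subunit of the related PBAF assembly, which is required for heart chamber development in mice. *Pbrm1* (ENSMUSG00000042323.17, chr14:31019138-31121592, +, 102 kb) had 2 peaks. The peak over the 5′ UTR, 73 bp from a TSS and 143 bp from the RefSeq start, scored 492.5 tags and had the highest GC content of all member peaks, 86.6%. The other, chr14:31086463-31086611 in intron 23, scored 145.5 tags and lay 2259 bp from the TSS of a retained-intron transcript.

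**Figure D2:**
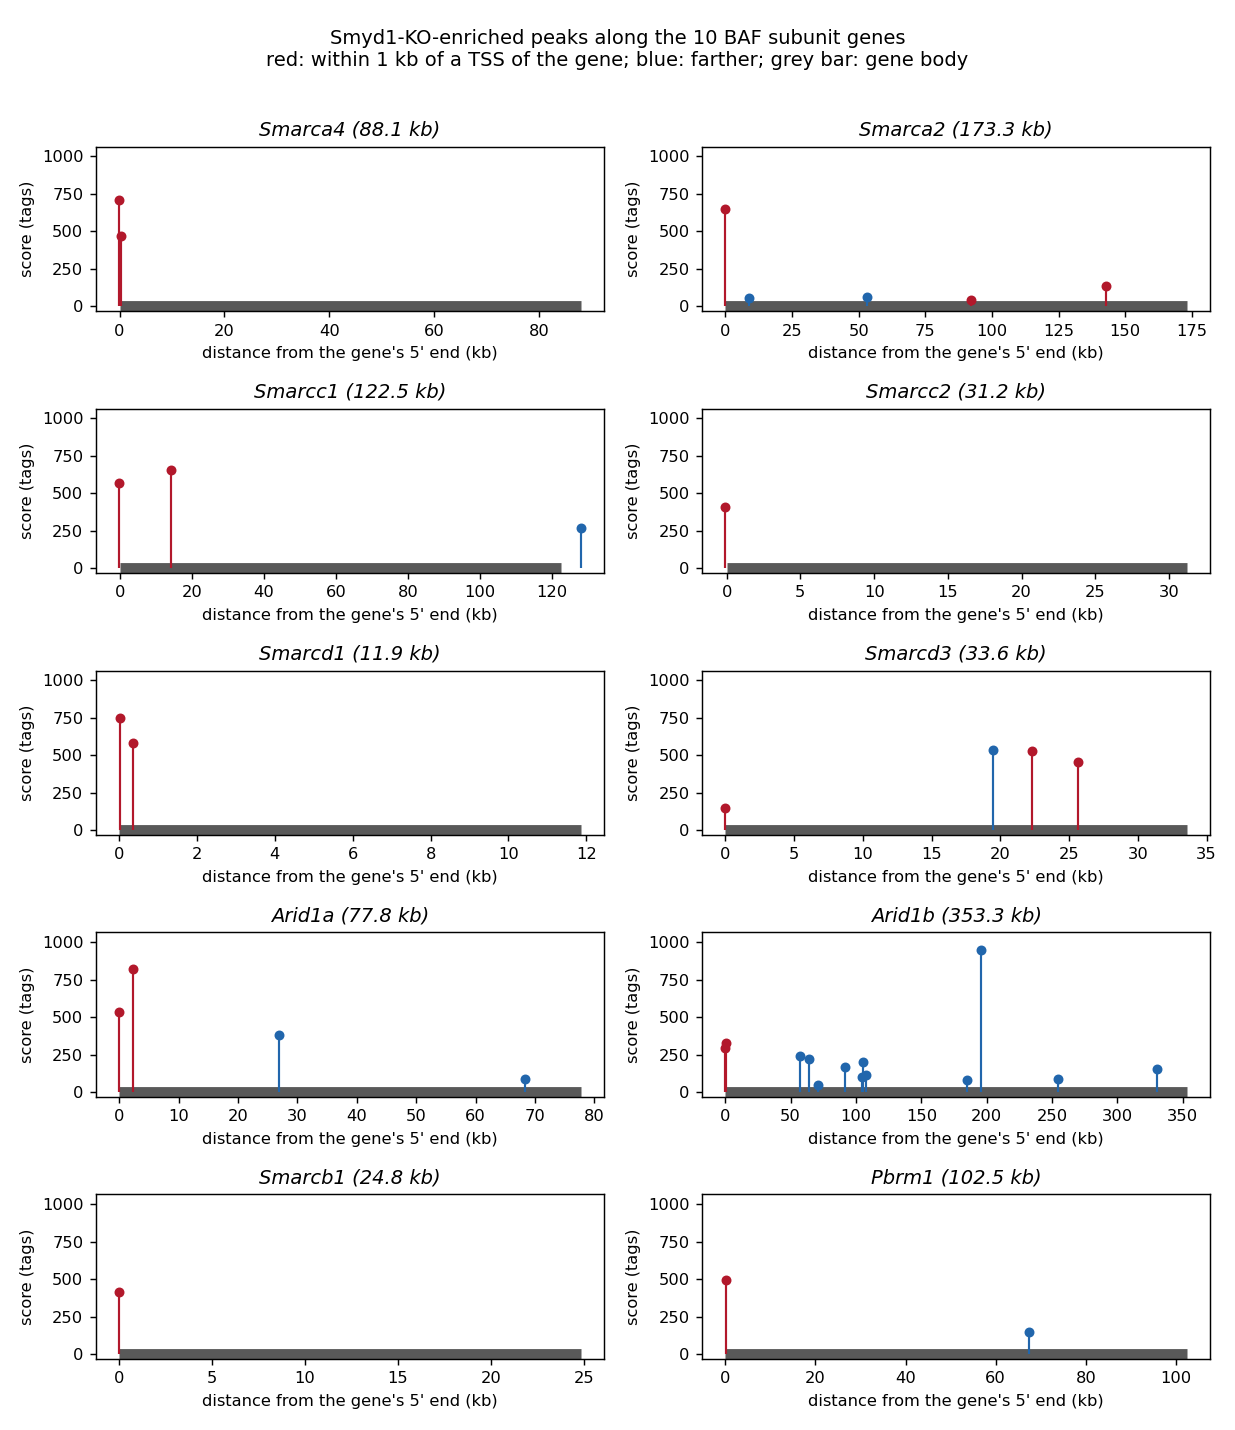
Each panel is 1 of the 10 genes, with the grey bar as the gene body, the horizontal axis as the distance from its 5′ end in kb and each stem as 1 *Smyd1-KO*-enriched peak whose height is the score in tags. Red stems lie within 1 kb of a TSS of the gene and blue stems farther, and the tallest stem of the set is the 952-tag peak inside *Arid1b*.

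The median number of peaks was 2.5 over the 10 genes and 1 over all protein-coding genes. Among the 567 protein-coding genes of at least 300 kb the median was 3 peaks (quartiles 2 and 6), and 16 of them, *Arid1b* included, had 13 peaks or more.

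**Figure D3:**
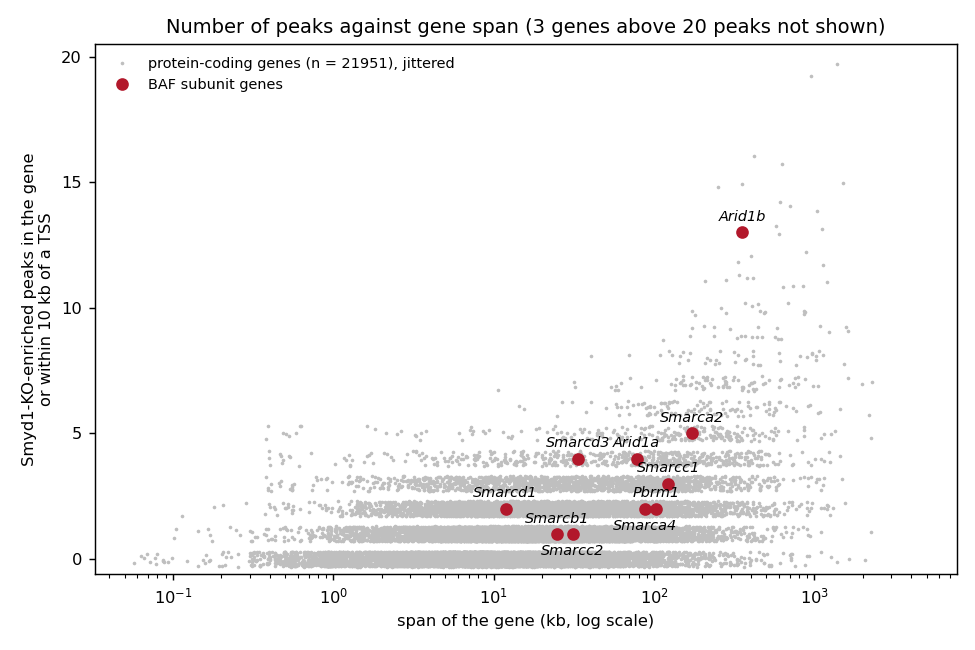
Number of *Smyd1-KO*-enriched peaks by the rule (vertical axis) against the span of the gene in kb (horizontal log axis) for 21951 protein-coding genes in grey, slightly jittered, with the 10 BAF subunit genes in red. 3 genes above 20 peaks are not drawn, and 13 protein-coding genes lie above *Arid1b* with its 13 peaks.

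Peaks near the starts and peaks inside the genes differed in score and in sequence. Of the 37 peaks, 19 lay no more than 1 kb from a TSS of the gene, 7 of them covering it, while 5 lay at 1 to 10 kb and 13 farther inside the genes, 11 of these in *Arid1b*. The median score was 492.5 tags within 1 kb (range 44.5 to 821.5) and 150.25 tags farther (range 49 to 952). The 2 ranges overlapped. By the protein-coding TSSs of any gene, the split used for the list, 20 of the 37 peaks were near. The whole list showed the same order, with a median of 420 tags (quartiles 264.5 and 639) for the 11331 peaks within 1 kb of a protein-coding TSS and 93 tags for the other 14414, and a median of 180.5 tags over all. That list median was reached by 16 of the 19 near peaks and by 7 of the 18 farther ones. The strongest peak within 1 kb had a median of 589 tags over the 10 genes (range 329 to 821.5), against 469.5 tags over the 10561 protein-coding genes with such a peak, and 7 of the 10 genes were above that value. *Arid1b*, *Smarcc2* and *Smarcb1* were the 3 below it. A gene with more peaks near its TSSs takes the highest of more values. At least 2 peaks within 1 kb were found at 7 of the 10 genes, against 8.37% of all protein-coding genes. Taking the strongest peak at any distance, the median over the 10 genes was 654 tags. With a single pooled score per peak, none of these differences could be set against replicate error.

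**Figure D4:**
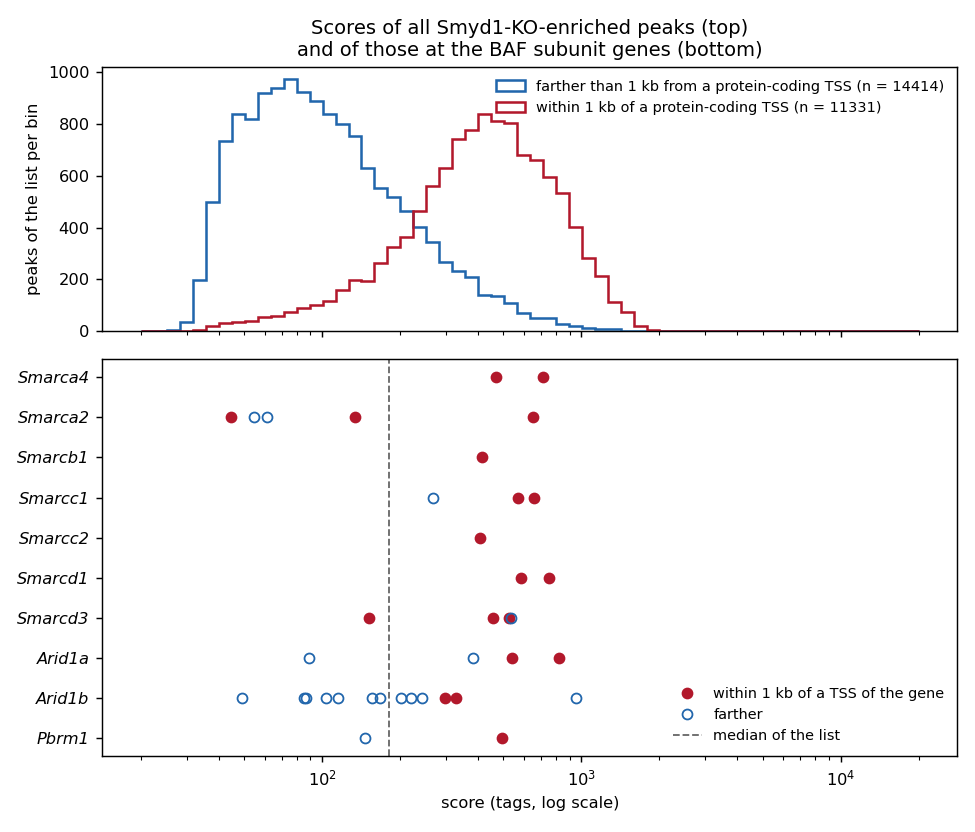
The upper panel is a histogram of the scores of all *Smyd1-KO*-enriched peaks, split by whether a protein-coding TSS lies within 1 kb (red) or not (blue). The lower panel shows each peak at the 10 genes by its score in tags (log axis), filled where it lies within 1 kb of a TSS of the gene and open where it lies farther, and the dashed line is the list median of 180.5 tags. *Arid1b* holds the strongest peak, 952 tags, although its start peaks reach 329 tags only.

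In place, 21 of the 37 peaks lay in introns (median 155 tags) and 5 outside the gene (median 569.5 tags), while the remaining 11 overlapped exons or UTRs. The nearest TSS of any gene was a TSS of the same gene for 26 peaks and of another gene for 11, most of the latter in *Arid1b*. Peaks within 1 kb of a TSS had a median GC content of 70.5% and a median ratio of observed to expected CpG of 0.931, and farther peaks had 55.4% and 0.248. The corresponding list medians were 66.4% and 0.797 near protein-coding TSSs and 53.0% and 0.218 elsewhere, so the same contrast held over the list. Lower-case repeat annotation touched 14 of the 37 peaks, and 0 were more than 50% repeat. In 36 of the 37 peaks no 31-base word occurred elsewhere in the assembled chromosomes. The exception was the 155-tag peak in *Arid1b*, in which 9.24% of the words were repeated.

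Short motifs were searched as fixed letters on both strands, and a match is given as a description of the sequence only. The GC box GGGCGG, the letters bound by SP and KLF factors, occurred in 12 of the 37 peaks (32.4%, against 29.1% of the list), in 9 of the 19 near peaks (47.4%, against 53.8% of the list near protein-coding TSSs), and 9 times in the *Pbrm1* start peak printed above. The NRF1 letters GCGCATGC occurred in 4 peaks (10.8%, against 1.38% of the list), those at the starts of *Smarca4*, *Smarcb1* and *Smarcc1* and the upstream peak of *Smarcd3*. Of the 19 near peaks, 3 held them (15.8%, against 2.64% of the list near protein-coding TSSs). The CTCF core letters AGGGGGC occurred in 7 peaks (18.9%, against 9.09%) and in 5 of the 19 near peaks (26.3%, against 11.5% near protein-coding TSSs). These letters can overlap those of the GC box, as in the run of capitals in the *Smarca2* sequence. The ETS letters CCGGAAG occurred in 2 peaks (4.98% of the list), the CCAAT box CCAAT in 3 (19.6%), the TEAD letters CATTCC in 5 (10.6%) and the E-box CACGTG in 1 (3.24%), the 381.5-tag peak of *Arid1a*. The CRE letters TGACGTCA, the YY1 letters AAGATGGC and the MEF2 letters CTAAAAATA were in 0 of the 37 peaks, and in 0.789%, 1.43% and 0.707% of the list.

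The GATA letters AGATAA occurred in 5 peaks, none of them within 1 kb of a TSS, and in 8.87% of the list (2.06% of its peaks near protein-coding TSSs and 14.2% of the others). GATA factors are regulators of heart and blood cell genes. Of these 5 peaks, 4 were intronic peaks of *Arid1b*, scoring 241.5, 167, 201.5 and 85 tags, and 1 was the 54.5-tag peak in intron 1 of *Smarca2*. The 2 strongest of them, chr17:5051210-5051358 and chr17:5099320-5099468 (+ strand), are shown with the GATA letters in capitals, and the 952-tag peak of *Arid1b* printed above held none of the 11 motifs.
Arid1b GATA peak in intron 2: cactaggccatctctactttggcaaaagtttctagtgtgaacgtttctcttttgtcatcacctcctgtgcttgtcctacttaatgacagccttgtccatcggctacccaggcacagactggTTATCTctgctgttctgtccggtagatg
Arid1b GATA peak in intron 3: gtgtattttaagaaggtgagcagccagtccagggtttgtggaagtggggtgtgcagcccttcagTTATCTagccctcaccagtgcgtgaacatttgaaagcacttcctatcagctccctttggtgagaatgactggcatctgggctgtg

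The paralog pairs could be set side by side. Within 1 kb of a TSS, *Smarca4* and *Smarca2* reached 712 and 651.5 tags, *Smarcd1* and *Smarcd3* 752.5 and 526.5, *Smarcc1* and *Smarcc2* 656.5 and 406.5, and *Arid1a* and *Arid1b* 821.5 and 329. By number of peaks the pairs stood at 2 and 5, 2 and 4, 3 and 1, and 4 and 13. The genes of a pair differ in length, and a longer gene has more room for peaks.

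The other subunits of BAF assemblies were examined by the same rule as a list of 19 genes. Of these, 18 had a *Smyd1-KO*-enriched peak, in 17 of them no more than 1 kb from a TSS, 9 covering a TSS, 11 had at least 2 peaks, and 0 had a WT-enriched peak. The shares over all protein-coding genes were 62.6%, 48.1%, 27.8%, 29.3% and 0.155% in the same order. At least 2 peaks within 1 kb of a TSS were found at *Ss18*, *Ss18l1*, *Bcl7a*, *Bcl7c* and *Bicral*, and at 8.37% of all protein-coding genes. *Brd9*, a bromodomain subunit of the non-canonical assembly, had 0 peaks, and *Bicra*, another subunit of that assembly, had 1 peak (625 tags) but 0 within 1 kb. The strongest peaks within 1 kb were those of *Actl6a* (994.5 tags), an actin-related subunit, *Bcl7c* (935 tags) and *Smarcd2* (917 tags), the remaining BAF60 gene. The median over the list was 497 tags, with a range from 197.5 to 994.5 tags, which overlapped the 329 to 821.5 tags of the 10 genes.

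A list of 20 genes for the ATPases of other remodelling complexes gave similar counts. All 20 had a *Smyd1-KO*-enriched peak, 17 had it no more than 1 kb from a TSS, 10 had it over a TSS, 13 had at least 2 peaks, and 0 had a WT-enriched peak, beside the same shares over all protein-coding genes. The strongest peak within 1 kb had a median of 524.5 tags (range 89.5 to 1245), with *Ep400* at 1245, *Chd6* at 1104.5 and *Chd8* at 1058.5 tags. *Chd4*, the ATPase of the NuRD complex, had 2 peaks of which the stronger scored 274 tags. *Chd3*, *Chd5* and *Ercc6* had 0 peaks within 1 kb. At least 2 peaks within 1 kb were found at *Chd1*, *Chd2*, *Chd4*, *Chd8*, *Chd9*, *Srcap* and *Atrx*, and at 8.37% of all protein-coding genes. The scores of the 3 lists overlapped, and no test was made between them.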

How the data were processed

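ATAC-seq was made from 2 libraries each of WT and *Smyd1-KO* hearts at E9.5. The authors aligned reads to mm10 with BWA-MEM, called peaks with HOMER 4.10.3 and kept those with a 2-fold or larger difference in tags. They annotated peaks with ChIP-Seeker 1.20.0. The deposited score of a peak is a signal, a tag value for the pooled libraries of a genotype. All 25745 *Smyd1-KO* scores were multiples of 0.5, and their scaling is not given in the sources used here. The authors state a sequencing depth of 100000000 reads per sample. The reads that were aligned and kept per library cannot be read from the lists, and with the scaling of the scores not given, no interval is given for a score. The treatment of duplicates, reads with several positions and the Tn5 offset is not given either, and each could change which peaks are listed.

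Here, GENCODE M21 gave genes and TSSs, and distances were measured from the nearer edge of a peak and set to 0 where it covered the TSS. RefSeq starts came from a GRCm38 promoter table that held all 10 genes, and its 11 promoter sequences for them equalled the genome. Peak sequences were read from GRCm38 with pysam 0.24.0 and samtools 1.23.1, and counts and figures were made in Python 3.11.15 with numpy 2.4.6 and matplotlib 3.10.9. The assignment of peaks to genes was tested on simulated data. Replicates cannot be compared in pooled lists, so no test was run, and shares over all protein-coding genes stand beside the counts of genes with peaks. All 10 genes were named. Other genes were named where a listed peak was nearer to their TSS or where they were on a compared list, and peaks were given by coordinates where strongest or covering a TSS. Some further peaks were given by coordinates after their values were seen. The genes, lists and motifs were chosen with earlier results of these data known. In 9 other settings, the distance was 3 or 25 kb, the gene body was left out, only protein-coding transcripts, the middle of the peak, scores at or above the list median, peaks nearest to the gene or peaks at most 50% repeat were used, or peaks within 1 kb were merged. The use of RefSeq starts and the omission of *Arid1b* were added after seeing the data.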

Additional observations from a re-analysis of the deposited data

How the results depend on the processing

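All 10 genes kept a *Smyd1-KO*-enriched peak no more than 1 kb from a TSS with only protein-coding transcripts, the middle of the peak, scores at or above the list median, peaks nearest to the gene, peaks at most 50% repeat, or RefSeq starts. The other settings could not lower that count, apart from the omission of *Arid1b*, which left 9 of 9 genes. The count of 0 WT-enriched peaks could not change under any setting, the nearest such peak being 2632 kb away. The number of peaks, 37, became 24 without the gene body, 23 with only scores at or above the list median, and 24 without *Arid1b*, and it stayed between 26 and 49 otherwise. The median of the strongest score per gene, 654 tags, became 719 tags at a distance of 25 kb, 594 tags without the gene body, 594 tags with only peaks nearest to the gene, and 651.5 tags without *Arid1b*. The last of these and the RefSeq starts were chosen after seeing the data. No paired analysis was possible because the lists were pooled over the libraries of a genotype and hold no value per replicate, and for the same reason no library could be left out. What depth limits could not be worked out, since the scaling of the scores is not given and peaks that did not differ were not used here.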
